A study of Mus musculus with 4 samples.

Results

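The cyclin, cyclin-dependent kinase (CDK) and mitotic kinase genes were taken by symbol from a RefSeq gene table of GRCm38. The rule took protein-coding genes named Ccn with a letter from a to l, t or y and then a number, Cdk or Cdkn with a number or a number and letter, and the E2f, Cdc25, Aurk, Plk and Bub families. It gave 65 members of 21887 protein-coding genes. Symbols that go on after the family name, 11 in all such as Cdk5r1 and Aurkaip1, and 7 cyclins whose letter carries no number, such as Ccnc and Ccnh, were not members. A called accessible region that came within 1000 bp of an annotated end of a gene, inside or outside it, was assigned to that gene and is termed a gene-end region.

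ATAC-seq, which reads out open chromatin through the places where a transposase inserts adapters, had been run on sorted CD4+CD8+ double-positive (DP) thymocytes of C57BL/6 mice. The knockout (KO) mice carried floxed Chaf1b alleles and Cd4-cre, which expresses Cre under Cd4 regulatory sequences and so acts in cells that have turned on Cd4. The wild-type (WT) mice carried the same floxed alleles without Cre, so both groups share the loxP sites. Chaf1b encodes a subunit of chromatin assembly factor 1, which places histones H3 and H4 on newly replicated DNA. Each group had 2 replicates, and 1 region list per group had been made from both. The labels give no age for the mice.

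No value per replicate was at hand, so differences between KO and WT have no replicate check and no test was made. Intervals cover counting error only, of reads for read numbers and ratios and of genes for shares. Genes of the same list are not replicates. Absence of a region means only that the caller did not report it, and the site may still be open. In bulk libraries, fewer cells with an open site and fewer cuts per cell cannot be told apart.

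Cyclins are the regulatory subunits of CDKs, and most are named for their rise and fall through the cell cycle. D-type cyclins with CDK4 or CDK6, and then E-type cyclins with CDK2, phosphorylate the retinoblastoma proteins and release E2F factors, which switch on genes for S phase. Cyclin A and cyclin B with CDK1 drive entry into mitosis once CDC25 phosphatases remove inhibitory phosphates, and Aurora, Polo-like and BUB kinases govern the spindle. In the thymus, proliferation is intense before and during the early DP stage, and most DP cells are afterwards small and resting. Many mitotic promoters carry pairs of CCAAT boxes, bound by NF-Y, and a cell cycle genes homology region (CHR), bound by the DREAM and MuvB complexes, while many S phase promoters carry E2F sites.

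Reference promoters, credited to RefSeq (GRCm38.p6), were found for 53 of the 65 members, with 250 bases before the start of transcription and 50 after it. The 7 promoters below show the letters that recur in members with different calls. Ccnb1, Ccnb2, Cdkn3, E2f3 and Cdc25a had a region over the promoter in both lists, Cdk1 in WT only, and Plk1 in neither. Capitals mark matches on either strand to CCAAT, to a CHR (TTTGAA or TTTAAA) or to an E2F motif (TTTGGCGC, TTTCGCGC or TTTCCCGC). All run 5′ to 3′ in the direction of transcription.
Ccnb1 (cyclin B1, chr13:100786437-100786736, minus strand): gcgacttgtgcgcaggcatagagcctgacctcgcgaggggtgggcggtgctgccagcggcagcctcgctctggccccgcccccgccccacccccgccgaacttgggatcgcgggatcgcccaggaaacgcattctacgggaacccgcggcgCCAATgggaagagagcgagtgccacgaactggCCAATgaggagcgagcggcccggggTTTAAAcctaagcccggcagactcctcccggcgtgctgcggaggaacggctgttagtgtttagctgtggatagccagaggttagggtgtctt
Ccnb2 (cyclin B2, chr9:70421505-70421804, minus strand): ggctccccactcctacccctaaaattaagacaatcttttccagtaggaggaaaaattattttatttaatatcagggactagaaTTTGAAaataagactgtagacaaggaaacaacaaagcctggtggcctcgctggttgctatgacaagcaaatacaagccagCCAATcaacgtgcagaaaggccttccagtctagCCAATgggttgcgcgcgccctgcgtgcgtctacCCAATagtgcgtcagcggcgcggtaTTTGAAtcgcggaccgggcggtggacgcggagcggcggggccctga
Cdk1 (chr10:69352863-69353162, minus strand): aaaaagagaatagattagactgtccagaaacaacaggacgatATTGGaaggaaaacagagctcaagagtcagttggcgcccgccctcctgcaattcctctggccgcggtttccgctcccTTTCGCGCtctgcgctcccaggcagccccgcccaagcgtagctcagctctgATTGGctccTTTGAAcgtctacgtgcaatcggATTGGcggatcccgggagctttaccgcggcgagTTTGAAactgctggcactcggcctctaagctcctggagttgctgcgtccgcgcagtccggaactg
Plk1 (Polo-like kinase 1, chr7:122159185-122159484, plus strand): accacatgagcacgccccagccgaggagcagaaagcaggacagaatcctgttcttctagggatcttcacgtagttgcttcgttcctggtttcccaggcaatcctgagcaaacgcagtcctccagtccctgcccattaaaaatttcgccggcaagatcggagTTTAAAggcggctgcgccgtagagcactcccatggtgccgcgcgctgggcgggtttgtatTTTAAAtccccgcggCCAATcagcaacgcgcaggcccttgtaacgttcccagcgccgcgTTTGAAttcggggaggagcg
Cdkn3 (a CDK phosphatase, chr14:46760291-46760590, plus strand): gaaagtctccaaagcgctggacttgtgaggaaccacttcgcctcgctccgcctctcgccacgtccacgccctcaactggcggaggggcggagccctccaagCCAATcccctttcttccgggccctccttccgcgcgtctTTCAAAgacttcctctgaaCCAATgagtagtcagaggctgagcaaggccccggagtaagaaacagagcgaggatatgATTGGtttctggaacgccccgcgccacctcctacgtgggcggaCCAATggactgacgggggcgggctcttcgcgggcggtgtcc
E2f3 (first annotated start, chr13:29986014-29986313, minus strand): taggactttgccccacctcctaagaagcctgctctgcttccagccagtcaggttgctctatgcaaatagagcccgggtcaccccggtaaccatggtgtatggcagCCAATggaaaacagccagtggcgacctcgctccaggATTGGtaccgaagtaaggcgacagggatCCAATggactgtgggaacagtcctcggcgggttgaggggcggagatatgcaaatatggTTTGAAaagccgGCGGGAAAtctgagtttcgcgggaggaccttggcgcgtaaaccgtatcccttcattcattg
Cdc25a (chr9:109875329-109875628, plus strand): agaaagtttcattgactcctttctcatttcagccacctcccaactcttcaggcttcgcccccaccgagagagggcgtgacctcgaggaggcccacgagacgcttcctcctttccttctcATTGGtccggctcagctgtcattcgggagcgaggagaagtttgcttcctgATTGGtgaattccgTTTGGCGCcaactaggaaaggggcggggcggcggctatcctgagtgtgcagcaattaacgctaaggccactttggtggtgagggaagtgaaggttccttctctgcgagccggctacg

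The capitals show CCAAT boxes 32 or 33 bases apart in Ccnb1, Ccnb2 and Cdk1. In Ccnb1 they begin 99 and 67 bases before the start, 32 bases apart, with a CHR 42 bases before it. Ccnb2 has 3 boxes spaced by 33 bases, at 87, 54 and 21 bases before the start. Cdk1 has reversed boxes 208, 80 and 48 bases before the start, the nearer pair also 32 apart. It has an E2F match at 131 and CHR matches at 71 and 15. In Plk1 there is 1 CCAAT box, 14 bases before the start, with CHR matches 89 and 29 bases before it. E2f3 and Cdc25a have an E2F match 11 and 67 bases before the start. CCAAT boxes lie 57, 58 and 43 bases apart in Cdkn3, 36 and 28 in E2f3, and 50 in Cdc25a. No spacing over all promoters is given here. Of the 31 matches in these promoters, 0 overlap another.

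Where the promoter overlapped a called region, CHR letters and repeated CCAAT boxes occurred in a larger share of members' promoters than of all such promoters, and where it overlapped none they did not. Among promoters that overlap a WT region, 16 of 36 promoters of members held a CHR (44.4%), against 16.7% of all 6590 such promoters. At least 2 CCAAT boxes stood in 16 of the 36 (44.4%), against 21.4%, and an E2F match in 4 of 36 (11.1%), against 4.45%. The SP motif GGGCGG was found in 83.3% and 71.8%. Among promoters of members that overlap a KO region, 11 of 25 held a CHR (44.0%, against 15.4% of all 3987) and 13 held at least 2 CCAAT boxes (52.0%, against 27.6%). In the 25 promoters of members that overlap no region in either list, 5 held a CHR (20.0%, against 28.8% of all 14544 such promoters) and 1 at least 2 CCAAT boxes (4.00%, against 8.92%). E2F letters differed from this pattern, with a match in 3 of these 25 (12.0%, against 1.48%). Of the 11 promoters in a WT but no KO region, 5 held a CHR (45.5%, against 18.8% of all 2732 such promoters) and 3 at least 2 CCAAT boxes (27.3%, against 12.0%). Some genes have more than 1 promoter in these counts, and a match is a string of letters, not a bound site.

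Gene-end regions were called at 30 of the 65 members in KO, where 21.1% of all protein-coding genes had one, and at 43 in WT, where the background was 34.6%. Both lists held 29 members, WT alone 14, KO alone 1 and neither 21. KO regions were thus found at 67.4% of the members called in WT (29 of 43, exact 95% interval 51.5 to 80.9), and the interval holds the 59.4% of all WT-called genes. Of the 30 members called in KO, 29 were called in WT (background 97.2%).

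The KO list had the lower genome background. Solved from the lists, this background was 1.03 reads in KO and 1.37 in WT, and their quotient of 0.752 was taken as the relative depth. Library totals were not used to check it. The depth-scaled ratio of a member is its KO summit reads over its WT summit reads, divided by 0.752. Fold enrichment is the authors' value for summit reads over local background. Among the marker genes, 1 of 12 DP thymocyte genes (Cd8b1) had a gene-end region in KO (background 21.1%) and 9 of 12 in WT (background 34.6%). The share of the 9 with a KO region was 11.1% (0.281 to 48.2, background 59.4%). Those called in WT only had 10 to 25 WT reads and WT folds of 4.64 to 8.10. The 59.4% is not matched for WT fold. In 4 bins of WT fold, from lowest to highest, the share over all genes was 24.5%, 43.6%, 74.7% and 94.9%. Myeloid, erythroid and stromal or epithelial markers had 0 regions in either list, B cell markers 0 of 6 in KO and 1 of 6 in WT, and natural killer markers 2 of 5 in each. Whether cell composition plays a part in the results below was not tested.

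**Figure D1:**
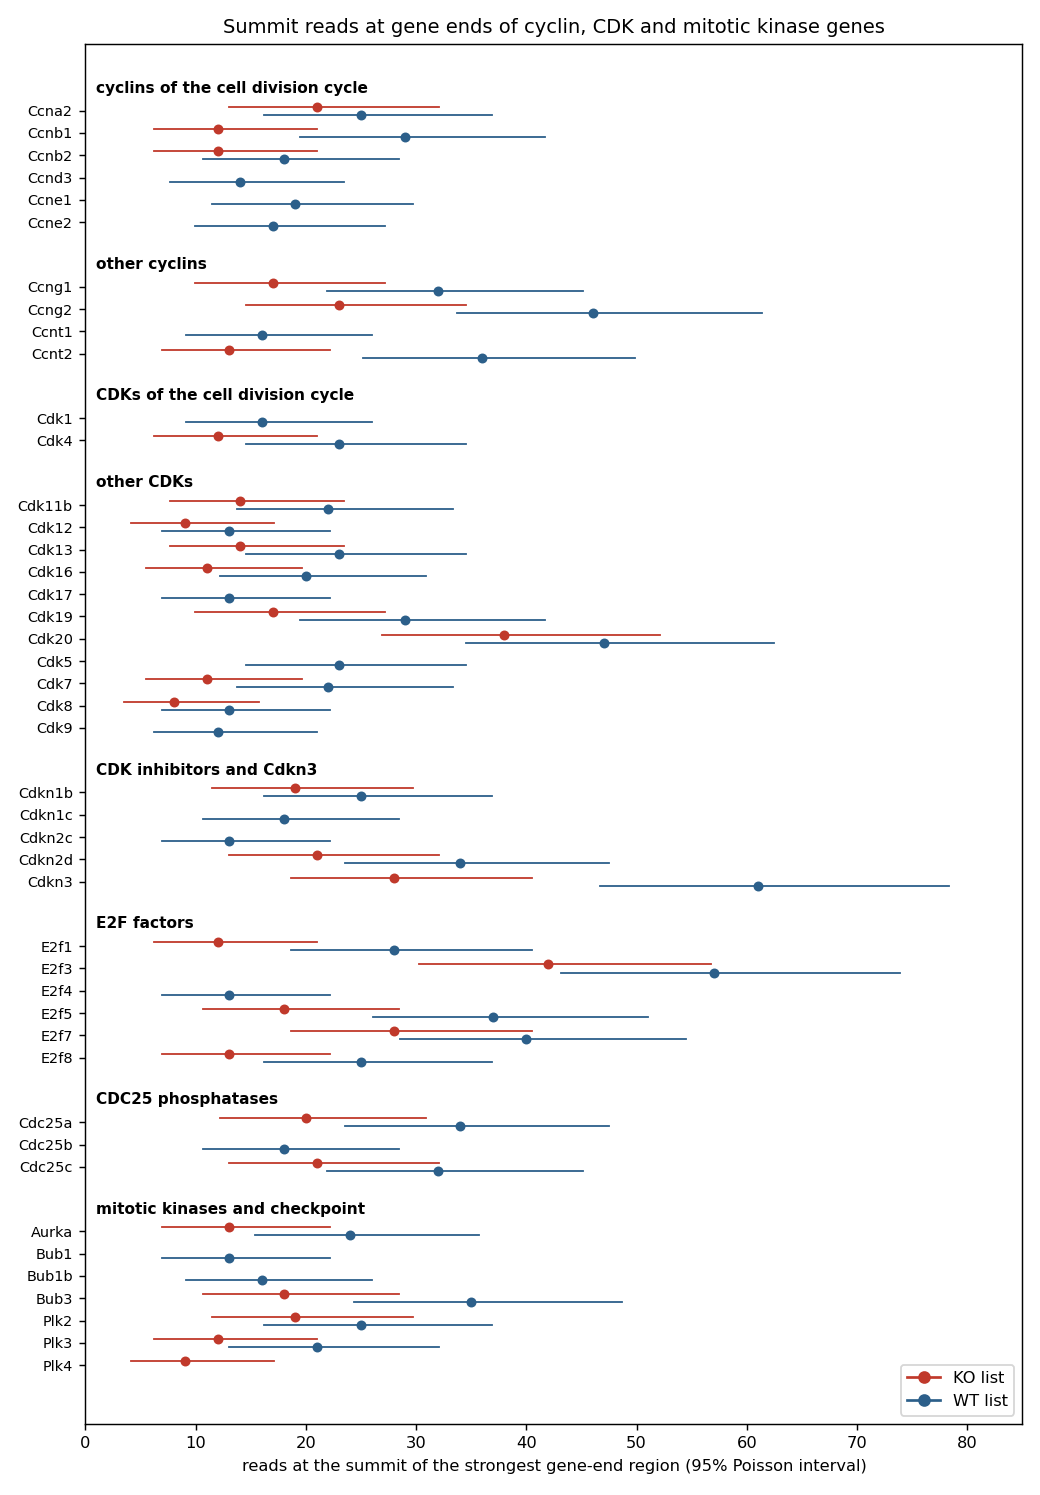
Reads at the summit of the strongest gene-end region (x axis) of the 44 members called in at least 1 list, by group of members, with 95% Poisson intervals for counting error, KO in red and WT in blue; a missing point means no called region. E2f3 has the highest KO value, 42 reads, and Cdkn3 the highest WT value, 61 reads.

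Ccna2, Ccnb1 and Ccnb2 had gene-end regions in both lists, and Ccnd3, Ccne1 and Ccne2 in WT only. Positions are those of the authors' files, in build mm10. Of the 10 cyclins of the cell division cycle, 3 were called in KO (background 21.1%) and 6 in WT (34.6%). The share of the 6 with a KO region was 50% (11.8 to 88.2), and this interval holds the 59.4% of all WT-called genes. The 3 in WT only had WT folds of 3.75 to 5.99, against 8.01 to 10.2 for the 3 in both lists. Ccna2, whose cyclin A2 acts in S phase and at entry into mitosis, had 21 reads at the summit and a fold enrichment of 9.40 in KO (chromosome 3, 36571978 to 36572369), against 25 reads and 10.2 in WT (36571929 to 36572289). That region lay 669 bp from the gene end in KO and 749 bp in WT, and within reach of an end of Bbs7 as well. Ccnb1 had 12 reads and a fold of 4.78 in KO (chromosome 13, 100786430 to 100786815), against 29 reads and 9.87 in WT (100786408 to 100786839). Its KO reads were 0.550 times the depth-scaled WT reads (0.256 to 1.11), the lowest ratio among these cyclins. Ccnb2 had 12 reads in KO (chromosome 9, 70421506 to 70421705), against 18 in WT (70421376 to 70421710), a ratio of 0.886 (0.389 to 1.94).

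The E-type cyclins, partners of CDK2, were called at their ends in WT only. Ccne1 had 19 reads and a fold of 5.99 in WT (chromosome 7, 38107421 to 38107816), and Ccne2 17 reads and 5.92 (chromosome 4, 11191133 to 11191472). A second Ccne1 region inside the gene, 3.16 kb from the start in KO and 3.21 kb in WT, held 11 reads in KO and 17 in WT. Ccnd3, the D-type cyclin with a known role in expansion of thymocytes, had a weak WT region at its first start, with 14 reads and a fold of 3.75. Ccnd1, Ccnd2, the germline cyclin gene Ccna1 and Ccnb3 had no gene-end region in either list.

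Over the Ccnd3 gene body, 3 regions were nevertheless shared. With the first annotated start (chromosome 17, 47505051) as zero, their summits lay at 16.7, 26.5 and 37.3 kb in KO and at 16.7, 26.4 and 37.2 kb in WT. They held 11, 17 and 11 reads in KO, against 20, 29 and 20 in WT. The depth-scaled ratios were 0.731, 0.779 and 0.731, each with a counting interval that holds 1. A further WT region stood at the second annotated start, 88.4 kb downstream, with 13 reads and no KO counterpart. So at Ccnd3 the shared internal regions were called in both lists and those at the starts in WT only. The regions at the starts were also the weakest of Ccnd3 in WT, with 14 and 13 reads. Scaled to the KO depth, the 14 reads come to 10.5. Whether position mattered apart from WT strength was not tested.

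**Figure D2:**
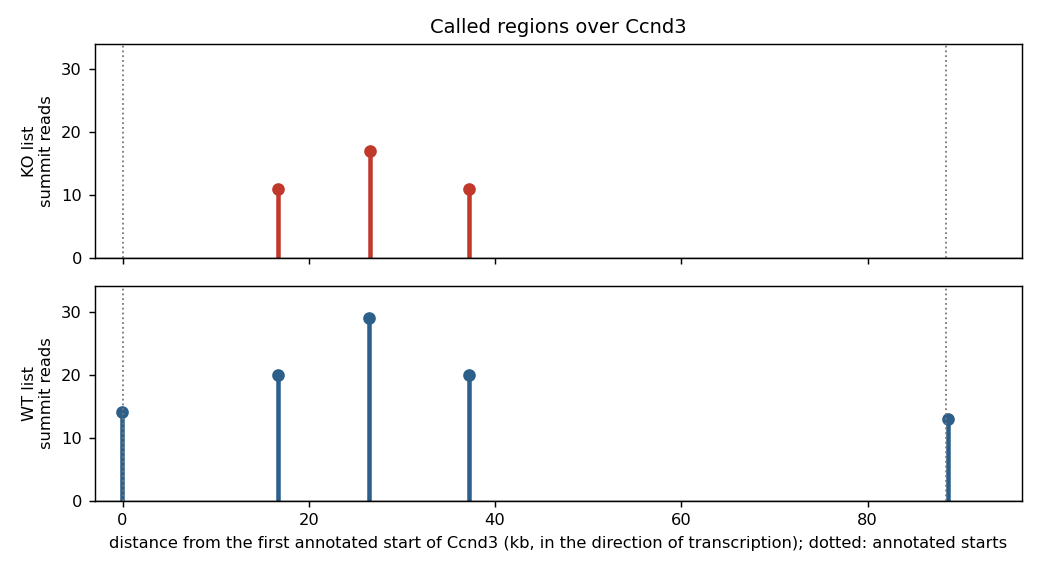
Called regions over Ccnd3, with distance from its first annotated start in kb on the x axis and reads at each summit on the y axis, KO above and WT below; dotted lines mark annotated starts. KO shows the 3 internal regions with 11 to 17 reads, and WT these with 20 to 29 reads plus 1 at each start.

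The other cyclins act outside the core cycle. Ccng1 and Ccng2, which encode cyclins G1 and G2 and are responsive to p53 and FOXO factors, were both called in each list, and Ccng2 had the most reads of this group. Ccng2 had 23 reads in KO, against 46 in WT, and Ccng1 17 in KO, against 32 in WT. Both genes had a second region in each list on the other side of the start. Ccnt2, whose cyclin T2 pairs with CDK9 in the elongation factor P-TEFb, had 13 reads in KO (chromosome 1, 127773897 to 127774305), against 36 in WT (127773850 to 127774380). Its ratio of 0.480 (0.234 to 0.927) was the lowest of all members in both lists. Ccnt1, the other cyclin T gene, was called in WT only, with 16 reads. Ccnl1 and Ccnl2, cyclins of RNA splicing, had no gene-end region by the rule but had 1 in each list at their annotated start, which lies inside the gene's outer bounds: 18 reads in KO and 20 in WT at Ccnl1, and 16 in KO and 22 in WT at Ccnl2.

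Of the CDKs of the division cycle, Cdk4 was in both lists and Cdk1 in WT only. Cdk4, the kinase of D-type cyclins, had 12 reads and a fold of 4.71 in KO (chromosome 10, 127063276 to 127063748), against 23 reads and 6.03 in WT (127063228 to 127063889), a ratio of 0.694 (0.315 to 1.45). Cdk1, the mitotic CDK, had 16 reads and a fold of 5.38 in WT (chromosome 10, 69352804 to 69353089). The nearest KO region was 744 kb from the gene. Cdk6 and Cdk2 had no gene-end region. The nearest regions to Cdk2 fell just outside the window, 1330 bp from the gene in KO with 30 reads and 1244 bp away in WT with 65. The member nearest to the limit from inside was E2f8, 856 bp from the gene end in KO and 820 bp in WT, followed by Ccna2 as above, Ccne2 at 700 bp in WT and Cdk12 at 680 bp in WT.

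Among the 15 other CDKs, 8 were called in KO (background 21.1%) and 11 in WT (background 34.6%), and the 8 were among the 11. Cdk20, a kinase linked to cilia, had the most reads, 38 in KO and 47 in WT, and a ratio of 1.07 (0.682 to 1.68). Cdk8, a kinase of the Mediator complex, had the fewest among those in both lists, 8 in KO and 13 in WT. Kinases that phosphorylate RNA polymerase II were divided. Cdk7, also the CDK-activating kinase, had 11 reads in KO and 22 in WT. Cdk12 had 9 in KO and 13 in WT, and Cdk13 14 in KO and 23 in WT. Cdk9, the P-TEFb kinase, was called in WT only, with 12 reads at a region 550 bp from its end, as were Cdk5 (23 reads, a region shared with Slc4a2) and Cdk17 (13 reads).

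CDK inhibitors were called at 3 of 8 members in KO (background 21.1%) and 5 in WT (background 34.6%), Cdkn3 included. Cdkn1b, which encodes p27 and holds resting cells in G1, had 19 reads and a fold of 7.25 in KO (chromosome 6, 134920272 to 134920477), against 25 reads and 6.74 in WT (134920268 to 134920752). It was 1 of the 2 members in both lists with a higher fold in KO, the other being Plk2. Cdkn2d, which encodes the CDK4 and CDK6 inhibitor p19INK4d, had 21 reads in KO (chromosome 9, 21291128 to 21291474), against 34 in WT (21291080 to 21291515), a ratio of 0.821 (0.453 to 1.46). Cdkn3, whose product removes phosphate from CDKs, had 28 reads and a fold of 10.4 in KO (chromosome 14, 46760267 to 46760641), against 61 reads and 14.5 in WT (46760299 to 46760875). Its ratio was 0.610 (0.376 to 0.969). Cdkn1c (p57, 18 reads) and Cdkn2c (p18INK4c, 13 reads) were called in WT only. Cdkn1a, the p53 target p21, Cdkn2a and Cdkn2b had no gene-end region in either list, and the nearest region to Cdkn2a was 136 kb from the gene in both.

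E2F factors had the highest median WT fold of the groups. Of 8 members, 5 were called in KO (background 21.1%) and 6 in WT (background 34.6%). Their median fold was 8.05 in KO and 10.4 in WT. E2f3, an activator, had 42 reads and a fold of 10.7 in KO (chromosome 13, 29986017 to 29986395), against 57 reads and 11.1 in WT (29985933 to 29986395), and its ratio of 0.980 (0.641 to 1.49) lay near 1. E2f7, an atypical repressor, had 28 reads in KO (chromosome 10, 110745200 to 110745539), against 40 in WT (110745024 to 110745770), a ratio of 0.931 (0.553 to 1.55). E2f8, the other atypical repressor, had 13 in KO (chromosome 7, 48881001 to 48881217), against 25 in WT (48880954 to 48881253).

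The remaining E2F genes had lower ratios or no KO region. E2f1, an activator, had 12 reads in KO (chromosome 2, 154569952 to 154570203), against 28 in WT (154569862 to 154570184), a ratio of 0.570 (0.264 to 1.16). E2f5, a repressor that acts with pocket proteins, had 18 in KO (chromosome 3, 14578526 to 14579024), against 37 in WT (14578460 to 14579075), a ratio of 0.647 (0.347 to 1.17). E2f4, the main repressor of resting cells, was called in WT only, with 13 reads at its high-coordinate end (chromosome 8, 105304591 to 105304825), a region also at an end of Elmo3. E2f6 had no region, and E2f2 had 1 in WT only, with 12 reads, beside its second annotated start inside the gene.

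All 3 CDC25 phosphatase genes were called in WT (background 34.6%) and 2 in KO (background 21.1%). Cdc25a, which acts at the G1 to S transition and in mitosis, had 20 reads and a fold of 8.20 in KO (chromosome 9, 109875222 to 109875620), against 34 reads and 9.46 in WT (109875159 to 109875554), a ratio of 0.782 (0.427 to 1.40). Cdc25c had 21 reads in KO (chromosome 18, 34751490 to 34751805), against 32 in WT (34751456 to 34751807), a ratio of 0.872 (0.478 to 1.56). Cdc25b, a mitotic phosphatase, was called in WT only, with 18 reads (chromosome 2, 131186696 to 131187022).

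The spindle kinases were divided. Aurka (Aurora A) had 13 reads in KO (chromosome 2, 172370518 to 172370747), against 24 in WT (172370489 to 172371045), where the single WT region matched a pair of KO regions. An end of Cstf1 lies in the same windows. Bub3, which brings BUB kinases to kinetochores, had 18 reads in KO (chromosome 7, 131559965 to 131560609), against 35 in WT (131559973 to 131560648). The checkpoint genes Bub1 (13 reads, chromosome 2, 127831793 to 127832120) and Bub1b (16 reads, chromosome 2, 118598002 to 118598292) were called in WT only. Plk2 and Plk3, stress-responsive Polo-like kinases, were in both lists. Plk2 had 19 reads in KO (chromosome 13, 110394681 to 110395107), against 25 in WT (110394635 to 110395173), and Plk3 12 in KO (chromosome 4, 117134025 to 117134376), against 21 in WT (117133850 to 117134235).

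Plk4, the kinase that starts centriole duplication, was the only member called in KO alone. It had 9 reads and a fold of 4.90 (chromosome 3, 40800056 to 40800372), with its summit 288 bp downstream of the annotated start. The nearest WT region was 29.7 kb from the gene. The background of KO-only calls was 0.585% of protein-coding genes. Plk1, Plk5, Aurkb and Aurkc had no gene-end region in either list, and the regions nearest to Plk1 lay 57.4 kb from the gene in KO and 26.2 kb in WT.

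Members called in both lists had stronger WT regions than those called in WT only, as over all genes. Those in both lists had a median of 28 WT reads (13 to 61), and the 14 in WT only a median of 16 (12 to 23). The median WT fold was 9.13 for members in both lists and 5.65 for those in WT only. Over all genes these medians were 8.57 and 5.90, so the split does not set members apart. WT-called genes were put in 4 bins of nearly equal size by WT fold enrichment. In the lowest bin 1 of 8 members had a KO region (background 24.5%), and in the next 6 of 13 (43.6%). In the upper bins it was 8 of 8 (74.7%) and 14 of 14 (94.9%), with lower interval bounds of 63.1% and 76.8%, so at these numbers the members could not be set apart from all genes. WT reads of the 14 members scaled to the KO depth were 9.03 to 17.3, and the fewest reads at any KO gene-end region were 7, with 95% of such regions at 10 or more.

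**Figure D3:**
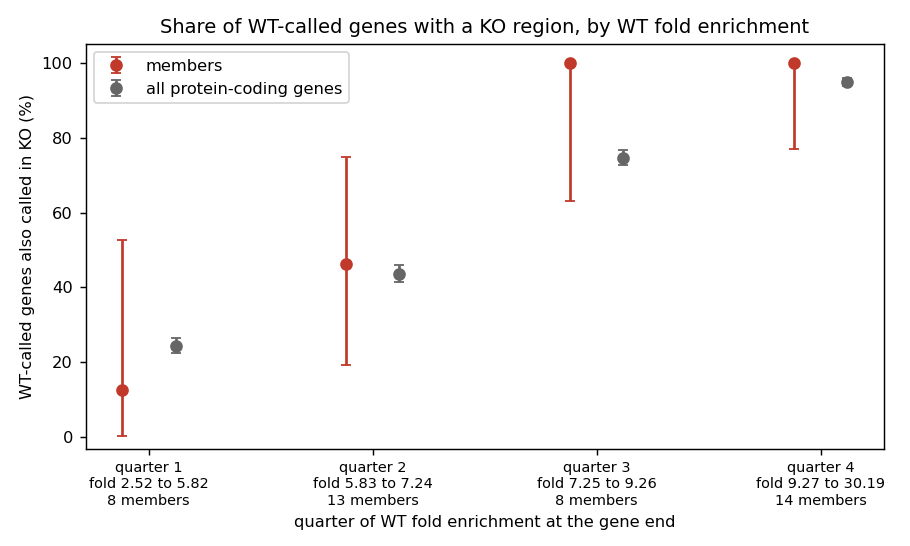
Share of WT-called genes that also had a KO gene-end region (y axis, percent) in 4 bins of WT fold enrichment (x axis), for members (red) and all protein-coding genes (grey), with exact 95% intervals. Members stand at 12.5%, 46.2%, 100% and 100%, and every interval of members holds the value of all genes.

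Where a member was called in both lists, KO reads were mostly below the depth-scaled WT reads, as over all genes. The ratio was below 1 in 25 of 29 members (background 75.8%), with a median of 0.779, against 0.837 over all 4496 genes in both lists. That median of all genes, -0.26 on the log2 scale, is the shift against which single members are to be read, and 19 of the 29 lay below it. A ratio at or under 1/1.5 was reached by 7 members (24.1%, background 20.1%), namely Ccnt2, Ccnb1, E2f1, Cdkn3, E2f5, Cdk7 and Ccng2. A ratio of 1.5 or more was reached by 0 members (background 1.49%). Relative to the median of all genes, 2 of 29 members, Ccnt2 and Ccnb1, were lower by 1.5-fold or more (6.90%, against 5.54% of all genes), and 0 were higher by as much (against 6.07% of all genes). Ratios at or over 1 were those of Ccna2 at 1.12 (0.594 to 2.08), Cdk20, Cdkn1b and Plk2. The intervals of Ccnt2 and Cdkn3 lay wholly below 1 (2 of 29, background 3.80%), and the intervals of all 29 members held the median of all genes.

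**Figure D4:**
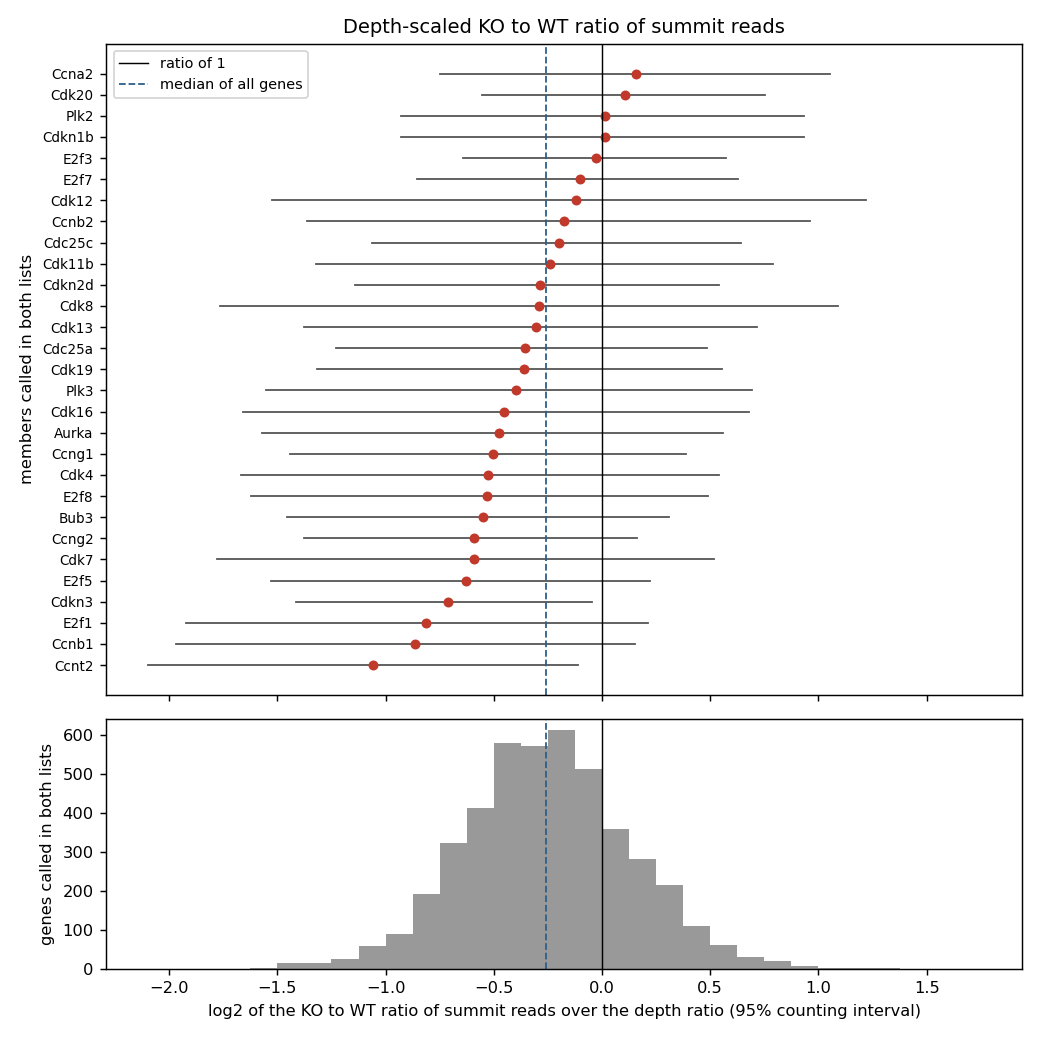
Top, depth-scaled KO to WT ratio of summit reads (x axis, log2) for the 29 members in both lists, with 95% counting intervals; bottom, number of genes per ratio for all 4496 genes in both lists. The members run from Ccnt2 at a ratio of 0.480 to Ccna2 at 1.12, around the dashed median of all genes at -0.26 (log2).

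The order of members by read number was similar in the lists. Across the 29 members, KO and WT summit reads had a Spearman rho of 0.820 and a Pearson r of 0.846, a description over genes that share the same libraries. The strongest KO and WT regions overlapped at 29 of 29 members, their summits lay a median of 29 bp apart, and 21 were within 100 bp. Correlations, overlaps and summit distances over all genes are not given here, so these values do not set members apart. The widest gap was at Cdk19, 415 bp, where a pair of KO regions overlapped the single WT one. KO regions were narrower than WT regions at 25 of 29 (86.2%), with median widths of 340 bp for KO and 436 bp for WT. The same held over all genes in both lists, with a narrower KO region at 84.0% and medians of 313 bp for KO and 453 bp for WT.

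Most regions covered the start of transcription, with the summit just before it. Positions relative to the start are given for members only, without a value over all genes. As only regions within 1000 bp of a gene end were taken, a place near the start is partly built in. Of members with an annotated start, the strongest region covered the start in 19 of 26 in KO and 29 of 34 in WT. Summits lay upstream of the nearest start in 22 of 26 in KO and 31 of 34 in WT, at a median distance of 110 bp in KO and 103 bp in WT. The farthest upstream were E2f1 in KO, at -632 bp, and Cdk9 in WT, at -626 bp, and the farthest downstream was E2f8, at 497 bp in KO and 515 bp in WT.

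**Figure D5:**
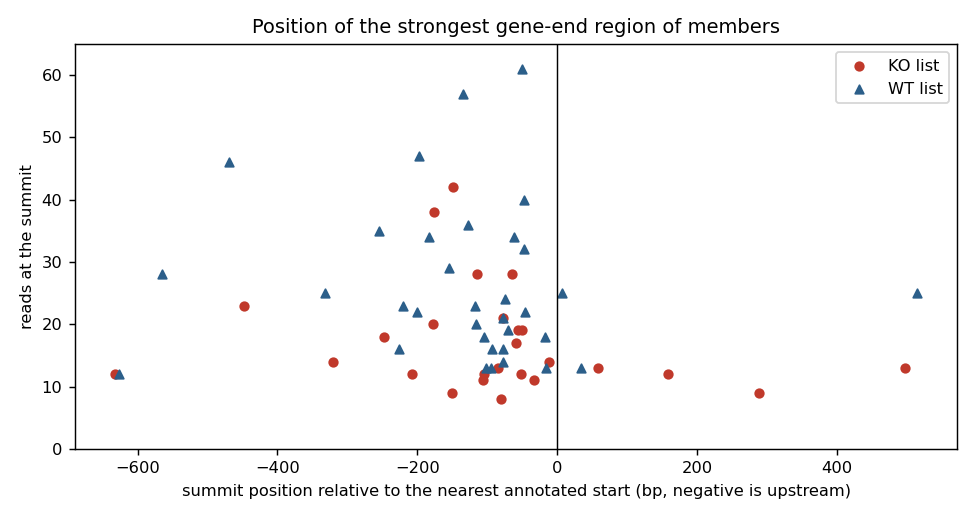
Summit position relative to the nearest annotated start in bp (x axis, negative is upstream) and reads at the summit (y axis) for the strongest gene-end region of 26 members in KO (red circles) and 34 in WT (blue triangles). Most summits lie within 200 bp of the start, 19 of 26 in KO and 26 of 34 in WT.

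Inside the gene bodies, away from both ends, regions were called at 7 of 65 members in KO (10.8%, background 7.61%) and at 7 of 65 in WT (10.8%, background 14.1%), Ccnd3 among them in both. Of these regions, 7 of 9 in KO overlapped a WT region (background 88.6%), and 7 of 10 in WT overlapped a KO region (background 37.5%). Ccnd3 alone held 3 of the shared regions. Those of Ccnl1 and Ccnl2 lay at annotated starts inside the gene, and WT regions of E2f2 and Ccnd3 without a KO counterpart lay at or beside such starts.

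Among other genes of the same pathway, KO calls were again fewer than WT calls. Of 47 listed genes that are not members, 26 had a KO gene-end region (background 21.1%) and 34 a WT one (background 34.6%). The 26 were all called in WT and made up 76.5% of the 34 (58.8 to 89.3, background 59.4%), with a median ratio of 0.729. The call backgrounds of 21.1% in KO and 34.6% in WT also apply to the groups of genes below. The anaphase-promoting complex and spindle checkpoint genes were called in KO at 12 of 18 and in WT at 13 of 18. The highest WT folds there were at Anapc4, a subunit of the complex (25 reads in KO, 50 in WT), and Fbxo5, its inhibitor (25 in KO, 51 in WT). The partners of mitotic kinases were called at 6 of 9 in KO and 7 of 9 in WT, led by Mastl, the Greatwall kinase (31 in KO, 45 in WT), and Incenp, the scaffold of Aurora B (26 in KO, 37 in WT). CDK regulators were called at 4 of 9 in KO and 6 of 9 in WT, with Cks1b, a small CDK subunit (15 in KO, 31 in WT), and Gmnn, the licensing inhibitor geminin (10 in KO, 27 in WT), highest. Pocket proteins and E2F partners were called at 4 of 11 in KO and 8 of 11 in WT, led by Mybl2, a MuvB partner (14 in KO, 33 in WT), and Lin52, a MuvB subunit (26 in KO, 48 in WT). None of the 47 was called in KO only (0 genes).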

How the data were processed

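ATAC-seq was made from DP thymocytes of 2 KO and 2 WT replicates, and each peak list was made by the authors from both replicates of its group, per the series' design text. MACS2 2.1.4, deepTools 3.4.1, Bowtie2, Picard, GATK, FastQC and Trim Galore are named with build mm10, per the submitters' processing notes; their order and settings, any shift for the transposase and any removal of duplicates are not given in the sources used here. The deposited lists give a fold enrichment and the -log10 of p and q for each region, all the authors' values, and the distance of the summit from the region's start. The deposited summit lists were not used.

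Reads at a summit and the local background were solved from fold enrichment, (reads + 1) / (background + 1), and p, a Poisson tail, with a largest deviation of 0.000172 in -log10 p. The most frequent background stands for the depth. Library totals were not used here. A gene was described by its gene-end region with the most reads. A region near 2 genes counts for each. Coordinates are 1-based. Reads were recovered for 2000 of 2000 simulated regions made with the same formulas, which checks the arithmetic only. The overlap rule for gene ends matched 500 of 500 simulated regions. That check ran in a form separate from the one used for the counts. Exact Clopper-Pearson and Poisson intervals are at 95%.

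The members, lists, motifs and the rule for named genes were chosen with earlier results of these data known. Named in full were all called members of the cell-division groups and those in KO only, other CDKs and cyclins by range and examples, and the 2 other pathway genes of highest WT fold in each list. Examples among the other CDKs and cyclins were picked after their values were seen. Window, threshold, list length, matching, symbol rule, chromosomes and scaling were varied. Tables were handled with pandas 2.3.3 and numpy 2.4.6 in Python 3.11.15, intervals computed with scipy 1.17.1 and plots drawn with matplotlib 3.10.9.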

Additional observations from a re-analysis of the deposited data

How the results depend on the processing

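No paired analysis was possible because each group has 1 list made from both replicates, and for the same reason no replicate could be left out. With the WT list limited to the length of the KO list, 93.1% of WT-called members had a KO region, against 67.4% with the lists as deposited; over all genes this setting gave 79.6%. It left 29 members called in WT and a median ratio of 0.760. Scaling by the median ratio of all 7080 KO regions with a WT region gave the members a median ratio of 0.899 in place of 0.779, since by depth alone the median of those regions is 0.867. Under the other planned settings the share was 59.0% to 73.0% and the median ratio 0.769 to 0.782, with 23 to 34 members called in KO and 37 to 49 in WT. After seeing the data, cyclins without a number were added (37 members in KO, 50 in WT) and regions at another gene's end were left out (28 in KO, 39 in WT). Summits of 8 to 61 reads limit single members: their ratios carry counting intervals that mostly hold 1.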

Other observations

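Among regions inside the gene bodies of members, the one with the most reads lay 29.9 kb inside Cdk8 (chromosome 5), with 228 reads and a fold of 25.0 in KO (146260898 to 146261432), against 219 reads and 24.2 in WT (146260895 to 146261436). Its depth-scaled ratio was 1.38 (1.14 to 1.67), and its local background was 8.16 in KO and 8.08 in WT, far above the genome backgrounds of 1.03 and 1.37. Its part in that ratio was not tested.

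Regions called in KO alone lay inside Cdk18 (13 reads, chromosome 1, 132131497 to 132131748) and Cdk14 (15 reads, chromosome 5, 4911992 to 4912253), kinases outside the core cycle without a gene-end region in either list. Inside Cdk19, a Mediator kinase like Cdk8, a region was called in WT alone (11 reads, chromosome 10, 40462289 to 40462604).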
